A study of Homo sapiens with 10 samples.

Results

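A set of 50 human genes of nucleotide, polyamine, serine and glutamine metabolism was followed through a genome-wide CRISPR knockout screen in the prostate cancer cell line 22Rv1. The genes were taken from a list of symbols, by their role in these pathways, and all 50 were found among the 18686 gene symbols of the count table, with 150 of its 55849 sgRNAs (3 for each gene). They fall into 14 purine genes, 12 pyrimidine genes, 8 genes of folate and serine metabolism, 10 genes of polyamine synthesis, hypusine formation and the methionine cycle, and 6 genes of glutamine, aspartate and asparagine metabolism. The screen had an NMYC arm, 22Rv1 cells in which NMYC (the protein of MYCN) was overexpressed, and a parental arm of 22Rv1 cells. Each arm gave 1 library at T0, 2 libraries at T6 and 2 at T12, and in each library the integrated sgRNA cassettes in genomic DNA were amplified and counted. Per the labels, both arms received lentiCRISPRv2_B, a viral pool of 65000 sgRNAs that also carries Cas9, at a multiplicity of infection of 0.3 and a coverage of 300x, followed by puromycin and by duplicate cultures passaged every 72 hours over 12 generations. Whether the 55849 sgRNAs of the table were filtered from those 65000 is not stated. The labels speak of replicates at T0, but the 10 libraries of the series include only 1 T0 library in each arm. As the steps are described, cultures were duplicated after infection and puromycin, so the duplicates of an arm appear to share an infection. In that case p-values measure only the spread between duplicates that arose after it, pooled over the groups. The sources used here do not give how NMYC was overexpressed, whether the line is a single clone, or what T6 and T12 count. Amplicons of sgRNA cassettes carry no expression, so neither the line nor its NMYC level could be checked here.

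In such a screen an sgRNA directs Cas9 to cut its target gene, and an sgRNA becomes rarer over time where cells that lost the gene divide less or die. Purines and pyrimidines are the building blocks of DNA and RNA, and cells make them from ribose phosphate, amino acids and one-carbon units or recover them by salvage. Serine feeds the folate cycle with one-carbon units, glutamine donates nitrogen to both base types and to asparagine, and the polyamines are small cations made from ornithine and decarboxylated S-adenosylmethionine. MYC family proteins are known to activate many genes of these pathways, with ODC1 and CAD among the long-known targets, which is background and was not measured here.

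The libraries held between 8783512 and 18398571 counts, and in each of them between 6 and 15 of the 150 sgRNAs of the metabolic genes had 0 counts. PCR reads lack molecular identifiers here, so these depths bound counting error only. With a minimum mean count of 20 over the 10 libraries, 141 of the 150 sgRNAs were kept, and all 50 genes were tested, 41 with 3 sgRNAs and 9 with 2 (PPAT, PAICS, IMPDH2, DHODH, UMPS, TYMS, MTHFD1L, GOT2 and ASNS). A gene's level is the sum of its kept sgRNAs in CPM (counts scaled to the library size), which measures sgRNA abundance in DNA and not expression. The log2 value of a gene compares such sums between groups, with 0.5 CPM added, and subtracts the median over the 18197 genes tested, so 0 marks the median gene.

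The T0 libraries of the arms stood apart from each other, which touches every comparison with T0. The summed CPM of 19 of the 50 genes differed by more than 4-fold between the NMYC and the parental T0 library, and 29.7% of all genes tested did so. DHPS and DOHH were at 47.03 and 24.99 CPM in the NMYC T0 library, against 1.57 and 0.672 CPM in the parental one, where the 3 sgRNAs of DHPS together had 21 counts and those of DOHH 9. ADSL went the other way, with 3.73 CPM (48 counts) in the NMYC T0 library and 49.6 CPM (665 counts) in the parental one. Among the 50 genes, 6 were below 10 CPM in the NMYC T0 library (8.17% of all genes) and 14 in the parental T0 library (13.9% of all genes).

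A gene's T0 level and its later log2 value ran in opposite directions, and T0 is by construction the denominator of that value. In NMYC cells, 4 of the 6 genes under 10 CPM at T0 had a log2 value above 0 at T12, and so had 1338 of the 1486 such genes in the whole table, while 10 of the 10 genes over 100 CPM at T0 were below 0, as were 3613 of 3814 over all genes. In parental cells, 13 of the 14 genes under 10 CPM at T0 were above 0 at T12, against 2430 of 2529 over all genes, and 16 of the 16 genes over 100 CPM were below 0, against 4683 of 5006. The part of the T0 libraries in the T12 against T0 values was not tested beyond the comparison of the arms at T12 without T0, given below for each group. The plot of the T0 libraries shows which genes this concerns.

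**Figure D1:**
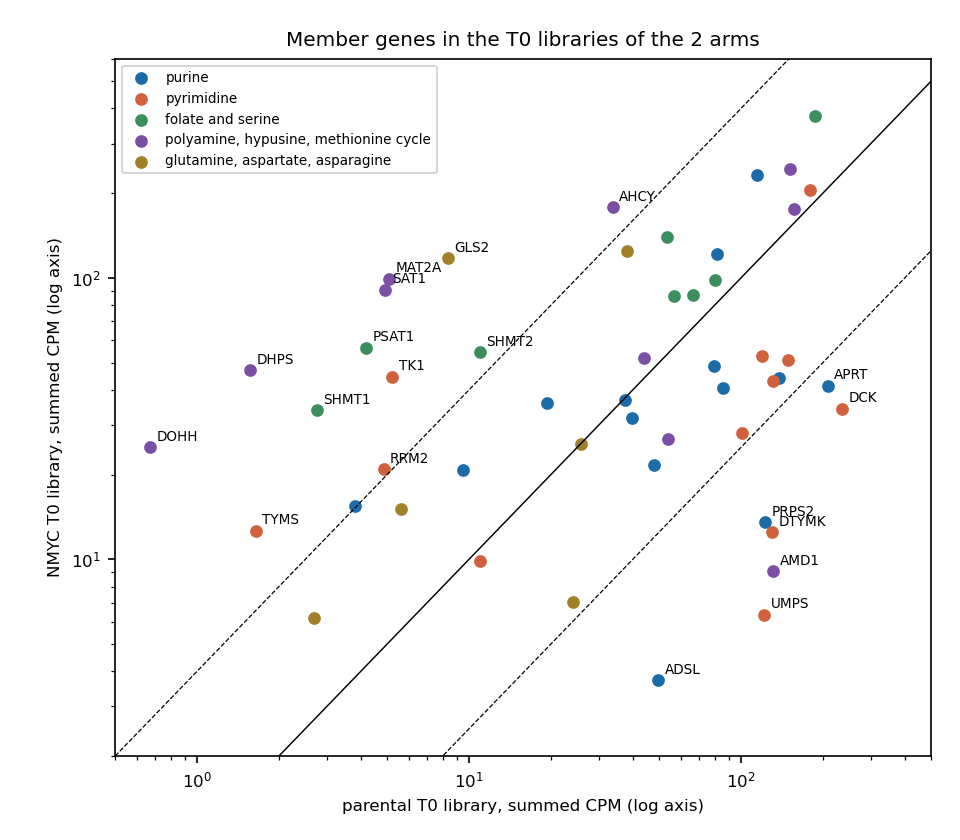
Summed CPM of each of the 50 genes in the NMYC T0 library (vertical, log axis) and in the parental T0 library (horizontal, log axis), 1 library each, coloured by metabolic group. The solid line marks equal levels and the dashed lines a 4-fold difference; the 19 genes outside the dashed lines include DHPS, DOHH, MAT2A and SAT1 on the NMYC side and ADSL, UMPS and AMD1 on the parental side.

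**Figure D2:**
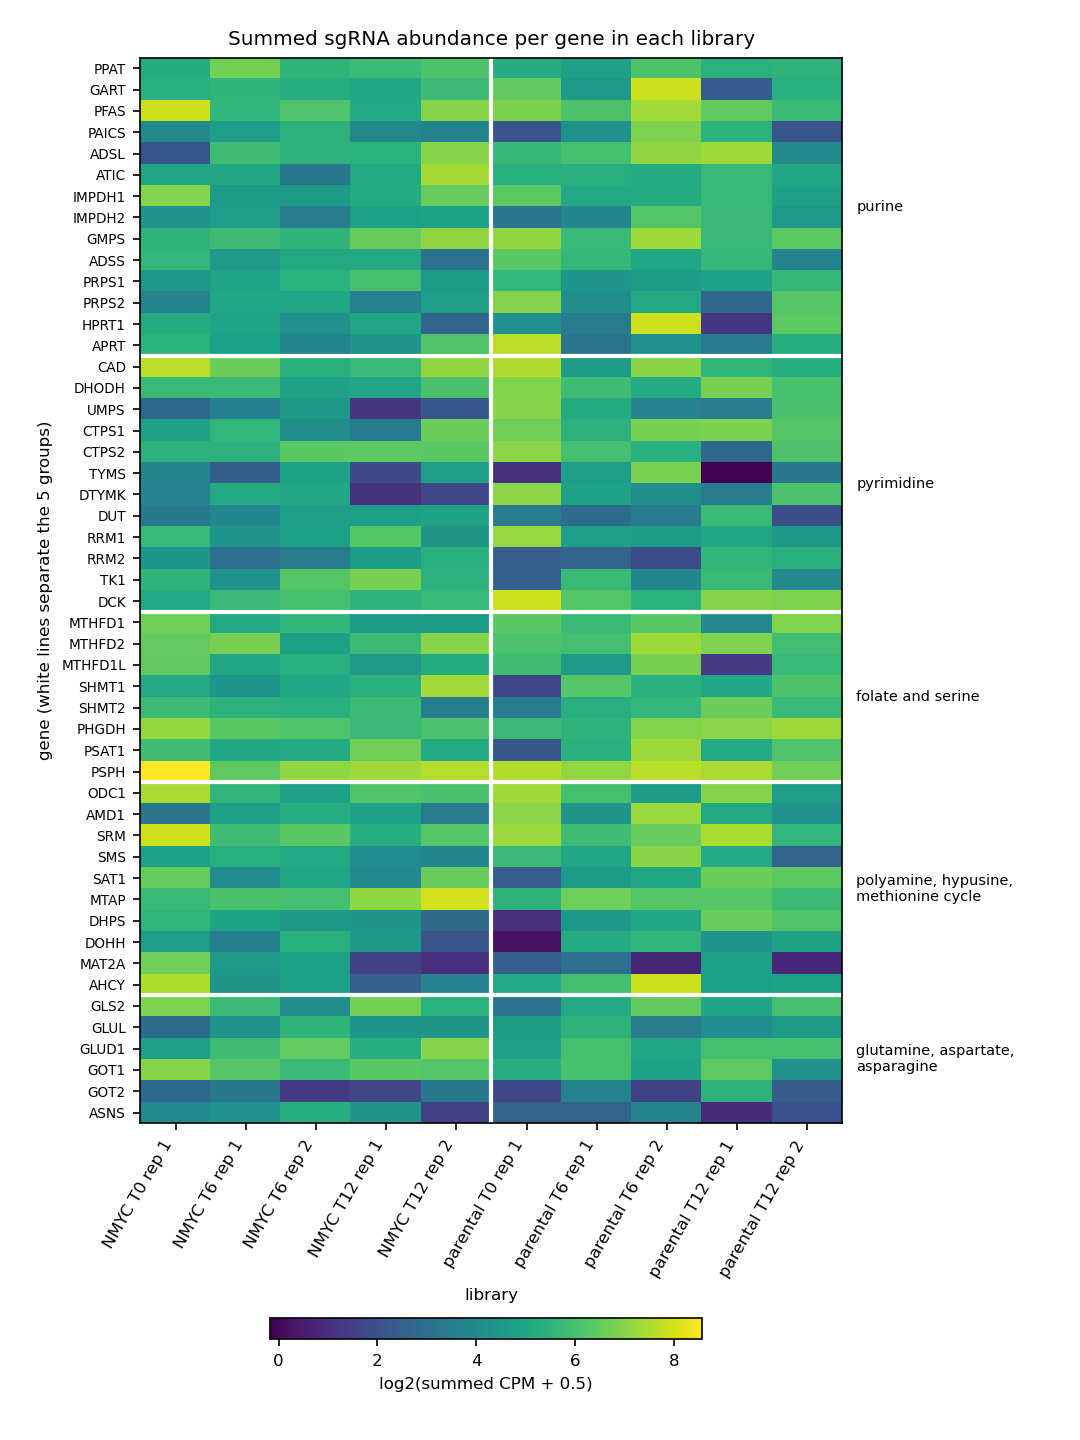
log2 of the summed CPM + 0.5 of the 50 genes (rows, by group) in the 10 libraries (columns, NMYC arm left of the parental arm). Single libraries often depart from their duplicate, as HPRT1 does in parental cells with 10.97 and 237 CPM at T6 and 1.87 and 81.7 CPM at T12.

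None of the 50 genes passed the test in either arm or in the comparison between the arms, and as a set they lay close to the median gene. The members' median log2 value at T12 was -0.11 in NMYC cells and -0.08 in parental cells, and that of the difference NMYC minus parental was -0.31, against 0 for all genes. At T12, 27 of the 50 genes were below the median gene in NMYC cells, 26 in parental cells and 26 in the difference, where 50% of all genes are by construction. In NMYC cells 14 genes had a log2 value below -1 (24.2% of all genes) and 9 above 1 (24.5%), in parental cells 12 (25.6%) and 18 (28.7%), and in the difference 20 (32.6%) and 13 (32.3%). Over T6 and T12, 14 of them were below the median gene in all 4 NMYC libraries (27.1% of all genes) and 12 above it in all 4 (24.8%), and in parental cells 11 were below in all 4 (26.3%) and 16 above (25.8%). For comparison, 80 genes were taken by symbols starting RPL or RPS followed by a number, without RPS6K. They stand for the cytosolic ribosome, which most cells need, but are not a curated list of its proteins. Their median log2 values were -0.61 in NMYC cells and -0.34 in parental cells. Of these 80 genes, 45 and 43 were below 0. Their middle 50% spanned -1.31 to 0.55 in NMYC cells and -1.52 to 0.90 in parental cells, on both sides of the median gene. The 358 olfactory receptor genes had medians of 0.01 and 0.08, with 174 and 170 below 0.

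Gene p-values came from edgeR's quasi-likelihood test of each sgRNA followed by robust rank aggregation, adjusted by the Benjamini-Hochberg method over all genes in each direction. At an adjusted p of 0.05, 0 of the 50 genes were called in NMYC cells at T12 against T0, in parental cells, or in the difference, and the share over all genes was 0% in each. At an unadjusted p under 0.05, NMYC cells had 1 gene lower (5.02% of all genes) and 2 higher (5.07%), and parental cells 3 lower (5.11%) and 4 higher (4.85%). The difference NMYC minus parental had 4 genes lower (4.78%) and 3 higher (4.85%). Read against 50 genes, these counts lie near the share over all genes. With sgRNA p-values from DESeq2 0 of the 50 genes passed as well (0% of all genes in each), and so with edgeR on counts summed per gene, where 0.011% of all genes passed in NMYC cells, 0.0055% in parental cells and 0% in the difference.

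Duplicates differed about as much for these genes as for others. The median absolute log2 difference between the T12 duplicates was 0.86 in NMYC cells and 1.06 in parental cells over the 50 genes, against 1.02 and 1.10 over all genes. At T6 it was 0.62 in NMYC cells and 1.03 in parental cells, against 0.61 and 1.04. The T12 log2 values of the arms, described across the 50 genes, had a Pearson correlation of 0.0346 and a Spearman correlation of 0.113, and the genes share their libraries and are not independent. The plot of the log2 values by group shows the spread within each group and the members at its ends.

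**Figure D3:**
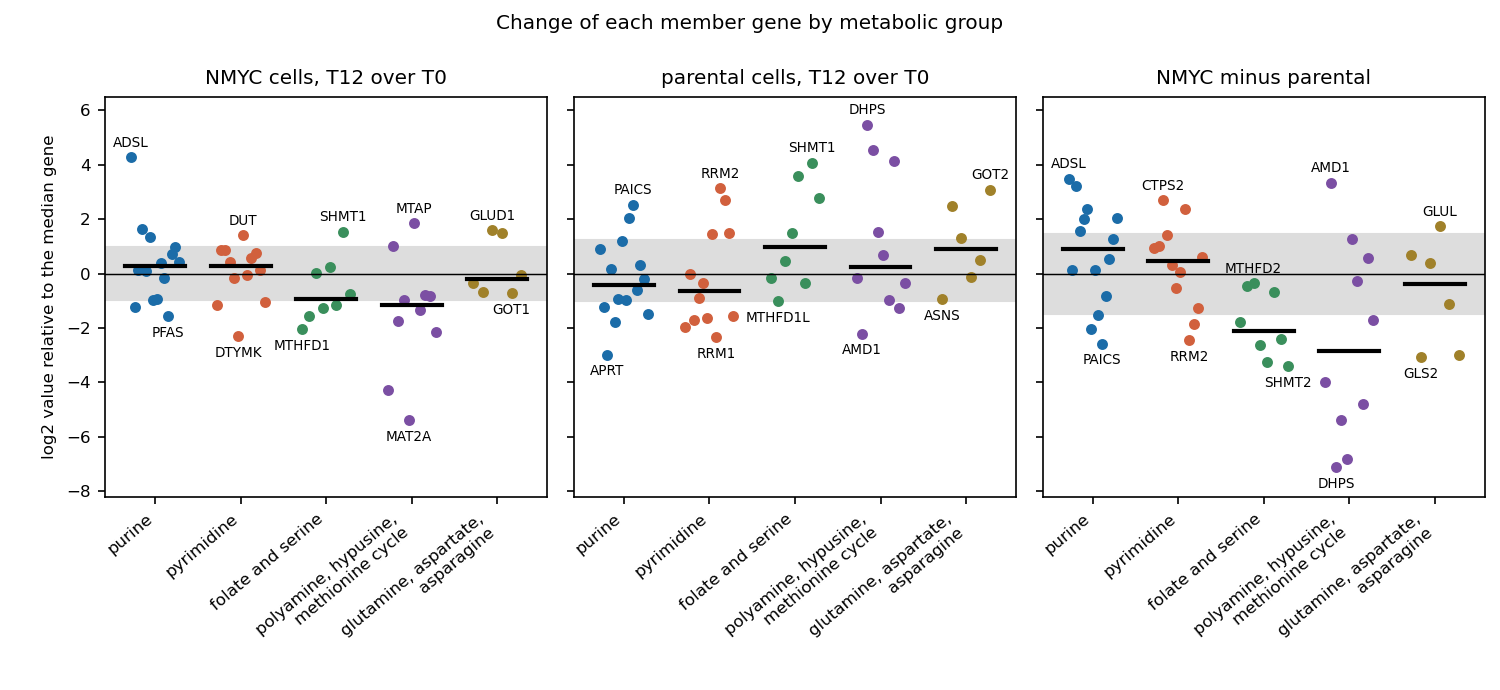
log2 value relative to the median gene for each of the 50 genes by metabolic group, for T12 over T0 in NMYC cells (left), in parental cells (middle) and for the difference NMYC minus parental (right). Short bars are group medians and the grey band spans the middle 50% of all genes tested; the lowest and highest member of each group are named, and none passed the test.

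In purine metabolism, ADSL, PFAS, PAICS and APRT each held the lowest or highest log2 value of the group in NMYC cells, parental cells or the difference, and no member passed the test. The 14 genes had a median log2 value at T12 of 0.26 in NMYC cells, -0.41 in parental cells and 0.901 in the difference, with 5, 8 and 4 of them below 0. Directly at T12, without T0, their median was 0.25 and 5 of the 14 were below 0. ADSL, adenylosuccinate lyase, acts both on the way to IMP and in the branch to AMP. Its sgRNAs summed to 3.73 CPM at T0, 57.5 and 43.8 CPM at T6 and 41.4 and 125 CPM at T12 in NMYC cells. For ADSL, parental cells had 49.6 CPM at T0, 62.6 and 139 CPM at T6 and 159 and 15.2 CPM at T12. The NMYC T0 library was thus the lowest of all 10, and the T12 libraries of the arms overlapped. ADSL had a log2 value of 4.28 in NMYC cells and 0.903 in parental cells, and the difference of 3.48 had an adjusted p of 0.972 by edgeR and rank aggregation. In NMYC cells alone the adjusted p was 0.885, with 3 of 3 sgRNAs higher. The 3 sgRNAs had 17, 0 and 31 counts in the NMYC T0 library, against 400, 17 and 248 in the parental one. Set directly against parental cells at T12, without T0, ADSL had a log2 value of 0.00.

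GMPS makes GMP from XMP. Its sgRNAs summed to 44.2 CPM at T0, 55.4 and 44.96 CPM at T6 and 92.7 and 139 CPM at T12 in NMYC cells. For GMPS, parental cells had 138 CPM at T0, 53.7 and 155 CPM at T6 and 52.6 and 82.2 CPM at T12. Both NMYC T12 libraries lay above both parental ones, with 116 ± 32.6 CPM in NMYC cells and 67.4 ± 20.9 CPM in parental cells (SD, n = 2 each). The log2 value was 1.35 in NMYC cells (edgeR and rank aggregation adjusted p = 0.959), -0.93 in parental cells and 2.39 in the difference (adjusted p = 0.993), and the direct value at T12 was 0.85. Its weakest sgRNA had 1 count in each T0 library. PFAS, a mid-pathway enzyme of purine synthesis that uses glutamine, had the lowest log2 value of the group in NMYC cells. It summed to 231 CPM at T0, 46.8 and 70.4 CPM at T6 and 34.9 and 125 CPM at T12 in NMYC cells. For PFAS, parental cells had 114 CPM at T0, 69.1 and 163 CPM at T6 and 85.5 and 54.7 CPM at T12. Its NMYC T0 library was the highest of the 10 and the arms overlapped at T12, with log2 values of -1.55 in NMYC cells, -0.61 in parental cells and -0.84 in the difference.

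PAICS, which carries out consecutive steps of the same pathway, had the highest log2 value of the group in parental cells and the lowest difference. It summed to 15.5 CPM at T0, 25.8 and 42.97 CPM at T6 and 15.3 and 13.1 CPM at T12 in NMYC cells, over 2 sgRNAs. For PAICS, parental cells had 3.81 CPM at T0, 19.5 and 117 CPM at T6 and 41.7 and 3.73 CPM at T12. The parental duplicates lay 41.7 against 3.73 CPM at T12, a wider gap than that between the arms, and the log2 values were -0.16 in NMYC cells, 2.53 in parental cells and -2.57 in the difference. APRT salvages adenine. It summed to 41.4 CPM at T0, 26.9 and 13.2 CPM at T6 and 20.3 and 72.8 CPM at T12 in NMYC cells. For APRT, parental cells had 208 CPM at T0, 8.51 and 19.4 CPM at T6 and 10.2 and 38.4 CPM at T12. Its parental T0 library was the highest of the 10, most of it from an sgRNA with 2516 of the 2787 counts, and its log2 value there of -2.98 was the lowest of the group, against 0.14 in NMYC cells. The difference for APRT was 3.22 and the direct value at T12 0.995.

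The other 9 purine genes had log2 values of -1.23 to 1.63 in NMYC cells, -1.79 to 2.03 in parental cells and -2.04 to 2.03 in the difference. PPAT, the committed step of the pathway, was above the median gene in all 8 later libraries, as were MTAP and GLUD1 and 6.39% of all genes, and IMPDH1 and ADSS, at the entry of the GMP and AMP branches, were below it in all 8, as were CAD and ODC1 and 7.32% of all genes. IMPDH2, the other IMP dehydrogenase, had 0.39 in NMYC cells and 2.03 in parental cells, where IMPDH1 had -0.94 and -0.97. The ribose phosphate kinases PRPS1 and PRPS2 had 0.96 and 0.42 in NMYC cells and -0.21 and -1.501 in parental cells. GART and ATIC, which use folate one-carbon units, had differences of 1.99 and 1.58, and HPRT1, which salvages hypoxanthine and guanine, had -2.04. The HPRT1 value rests on parental duplicates at 1.87 and 81.7 CPM at T12.

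In pyrimidine metabolism, CAD was below the median gene in all 8 later libraries, DCK and CTPS2 lay below it in the 4 later parental libraries and above it in the 4 later NMYC libraries, as did PRPS2 and 6.64% of all genes, and no member passed the test. The 12 genes had a median log2 value at T12 of 0.27 in NMYC cells, -0.62 in parental cells and 0.47 in the difference, with 5, 8 and 4 of them below 0. Directly at T12, without T0, the median had the opposite sign, -0.18, with 7 of the 12 below 0, and the NMYC median against T0 was -0.04 in one T12 duplicate and 0.43 in the other. CAD carries out the opening steps of pyrimidine synthesis and uses glutamine. Its sgRNAs summed to 205 CPM at T0, 96.4 and 40.8 CPM at T6 and 51.5 and 137 CPM at T12 in NMYC cells. For CAD, parental cells had 179 CPM at T0, 23.8 and 128 CPM at T6 and 46.7 and 37.9 CPM at T12. The T0 libraries were the highest of their arms and at T12 both NMYC libraries lay above both parental ones, by 94.1 ± 60.3 CPM against 42.3 ± 6.24 CPM (SD, n = 2 each). Its log2 value was -1.15 in NMYC cells and -1.97 in parental cells (edgeR and rank aggregation adjusted p = 0.977), and 0.93 in the difference. DHODH and UMPS, the later steps to UMP, had log2 values of -0.16 and -1.03 in NMYC cells and -0.36 and -1.55 in parental cells, with 2 sgRNAs each.

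DCK phosphorylates deoxycytidine in the salvage route. It summed to 34.3 CPM at T0, 53.8 and 62.3 CPM at T6 and 43.95 and 50.5 CPM at T12 in NMYC cells. For DCK, parental cells had 235 CPM at T0, 74.9 and 42.00 CPM at T6 and 122 and 116 CPM at T12. The parental T0 library was the highest of the 10, and at T12 both NMYC libraries lay below both parental ones although the T12 against T0 difference had the opposite sign. The log2 value was 0.43 in NMYC cells, -0.88 in parental cells (edgeR and rank aggregation adjusted p = 0.977) and 1.42 in the difference, and the direct value at T12 was -1.25. The sgRNAs of DCK disagreed in parental cells: 1 had 1749 counts at T0 and 16 and 0 at T12, and another had 774 at T0 and 1661 and 1855 at T12. With the mean of both T0 libraries as baseline, an alternative chosen after seeing the data, the log2 value of DCK in parental cells was 0.04, the only one of 218 values, over 17 results on single genes and their alternatives, whose sign did not hold. CTPS2, a CTP synthase, had the highest difference of the group, 2.69. It summed to 42.9 CPM at T0, 43.2 and 80.4 CPM at T6 and 81.9 and 80.04 CPM at T12 in NMYC cells. For CTPS2, parental cells had 132 CPM at T0, 63.5 and 41.1 CPM at T6 and 6.203 and 68.8 CPM at T12. Both NMYC T12 libraries lay above both parental ones. Its relative CTPS1 had a difference of 0.997.

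DTYMK, the kinase that passes dTMP on towards dTTP, had the lowest log2 value of the group in NMYC cells, -2.28. It summed to 12.5 CPM at T0, 35.2 and 33.2 CPM at T6 and 1.64 and 2.81 CPM at T12 in NMYC cells. For DTYMK, parental cells had 130.3 CPM at T0, 29.5 and 17.3 CPM at T6 and 10.7 and 67.4 CPM at T12. At T12 both NMYC libraries lay below both parental ones, and the direct comparison of the arms gave a log2 value of -3.79 (edgeR and rank aggregation adjusted p = 0.972). At T0 the arms differed in the same direction, so the T12 against T0 difference was -0.55. UMPS followed the same course, with 1.83 and 4.04 CPM in NMYC cells at T12, against 10.7 and 66.6 CPM in parental cells, and 6.36 against 122 CPM at T0. DUT, which removes dUTP, had the highest log2 value of the group in NMYC cells, 1.402, and 1.46 in parental cells. It summed to 9.86 CPM at T0, 14.2 and 25.99 CPM at T6 and 26.4 and 28.4 CPM at T12 in NMYC cells. For DUT, parental cells had 10.97 CPM at T0, 7.03 and 10.3 CPM at T6 and 54.7 and 3.29 CPM at T12. The parental T12 duplicates enclosed the NMYC ones.

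The subunits of ribonucleotide reductase, the enzyme that makes deoxyribonucleotides, lay at opposite ends of the group in parental cells. RRM1, the large subunit, summed to 50.99 CPM at T0, 21.1 and 27.02 CPM at T6 and 78.2 and 21.6 CPM at T12 in NMYC cells. For RRM1, parental cells had 149 CPM at T0, 25.5 and 23.4 CPM at T6 and 32.6 and 22.1 CPM at T12. RRM2, the small subunit, summed to 20.96 CPM at T0, 7.56 and 10.9 CPM at T6 and 24.3 and 39.7 CPM at T12 in NMYC cells. For RRM2, parental cells had 4.85 CPM at T0, 5.94 and 3.297 CPM at T6 and 47.2 and 39.4 CPM at T12. In parental cells RRM1 started high at T0 and RRM2 low, and at T12 the arms overlapped for both. The log2 values of RRM1 were -0.06 in NMYC cells, -2.33 in parental cells and 2.38 in the difference, and those of RRM2 0.57, 3.13 and -2.45. Directly at T12 they were 0.93 for RRM1 and -0.36 for RRM2. The other 5 genes of the group, DHODH, UMPS, CTPS1, TYMS (thymidylate synthase) and TK1 (thymidine kinase), had log2 values of -1.03 to 0.87 in NMYC cells, -1.55 to 2.72 in parental cells and -1.87 to 0.997 in the difference.

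In folate and serine metabolism, all 8 genes had a difference NMYC minus parental below 0, and no member passed the test. The median log2 value at T12 was -0.94 in NMYC cells, 0.99 in parental cells and -2.09 in the difference, with 5, 3 and 8 of the genes below 0, where 50% of all genes are. Compared directly at T12, without T0, 3 of the 8 were below 0 and their median was 0.18. Of the 8 genes, 3 stood more than 4-fold higher in the NMYC than in the parental T0 library (SHMT1, SHMT2 and PSAT1), and none stood more than 4-fold lower. In the serine synthesis pathway, PHGDH, which opens it, was below the median gene in all 4 later NMYC libraries and above it in all 4 later parental libraries. PHGDH summed to 139.7 CPM at T0, 80.4 and 71.5 CPM at T6 and 52.6 and 66.8 CPM at T12 in NMYC cells. For PHGDH, parental cells had 53.5 CPM at T0, 44.96 and 121 CPM at T6 and 131 and 154 CPM at T12. At T12 both NMYC libraries lay below both parental ones, 59.7 ± 10.1 CPM against 142 ± 16.7 CPM (SD, n = 2 each), and the log2 values were -1.25 in NMYC cells, 1.499 in parental cells, -2.64 in the difference and -1.17 directly at T12. Over the whole table, 6.8% of genes were below in all 4 later NMYC libraries and above in all 4 later parental ones, as PHGDH and DHPS were among the 50.

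PSAT1, the aminotransferase that follows PHGDH, summed to 56.5 CPM at T0, 31.8 and 35.6 CPM at T6 and 101 and 35.3 CPM at T12 in NMYC cells. For PSAT1, parental cells had 4.18 CPM at T0, 40.8 and 156 CPM at T6 and 33.98 and 70.4 CPM at T12. Its parental T0 library was the lowest of the 10, with 56 counts over 3 sgRNAs, and the arms overlapped at T12. The log2 value was 0.24 in NMYC cells, 3.59 in parental cells (edgeR and rank aggregation adjusted p = 0.983) and -3.24 in the difference. PSPH, which completes serine, had -1.15, -0.35 and -0.69 for NMYC cells, parental cells and the difference. The hydroxymethyltransferases that pass a one-carbon unit from serine to folate are SHMT1 in the cytosol and SHMT2 in mitochondria. SHMT2 summed to 54.4 CPM at T0, 42.9 and 39.8 CPM at T6 and 55.1 and 11.2 CPM at T12 in NMYC cells. For SHMT2, parental cells had 10.97 CPM at T0, 39.3 and 48.3 CPM at T6 and 93.1 and 51.7 CPM at T12. It had 3 of 3 sgRNAs lower in the difference, -3.39 (edgeR and rank aggregation adjusted p = 0.992), with log2 values of -0.73 in NMYC cells and 2.76 in parental cells, and the arms overlapped at T12. SHMT1 summed to 33.8 CPM at T0, 20.05 and 33.00 CPM at T6 and 40.7 and 162 CPM at T12 in NMYC cells. For SHMT1, parental cells had 2.76 CPM at T0, 75.8 and 41.00 CPM at T6 and 31.9 and 69.3 CPM at T12. Its 37 counts in the parental T0 library preceded log2 values of 4.07 in parental cells and 1.54 in NMYC cells, the highest of the group in both arms.

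MTHFD1 in the cytosol and MTHFD1L and MTHFD2 in mitochondria interconvert the one-carbon units that folate carries. MTHFD1 summed to 98.2 CPM at T0, 34.95 and 47.5 CPM at T6 and 23.7 and 24.7 CPM at T12 in NMYC cells. For MTHFD1, parental cells had 80.03 CPM at T0, 54.3 and 77.4 CPM at T6 and 14.9 and 119.6 CPM at T12. MTHFD1 had the lowest log2 value of the group in NMYC cells, -2.03, with 3 of 3 sgRNAs lower and both T12 duplicates close to each other, against -0.15 in parental cells, where the duplicates lay far apart. MTHFD1L summed to 86.3 CPM at T0, 30.6 and 39.6 CPM at T6 and 22.6 and 36.6 CPM at T12 in NMYC cells, over 2 sgRNAs. For MTHFD1L, parental cells had 56.7 CPM at T0, 22.7 and 108 CPM at T6 and 1.94 and 50.4 CPM at T12. MTHFD1L had the lowest log2 value of the group in parental cells, -1.002, and -1.56 in NMYC cells, and its parental T12 duplicates lay on either side of the NMYC ones. MTHFD2 summed to 86.8 CPM at T0, 108 and 27.3 CPM at T6 and 53.96 and 126 CPM at T12 in NMYC cells. For MTHFD2, parental cells had 66.8 CPM at T0, 61.2 and 159 CPM at T6 and 117 and 57.9 CPM at T12. It stayed nearest to the median gene between the arms, with a difference of -0.35, the highest of the group, and overlapped at T12.

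The 10 genes of polyamine synthesis, hypusine formation and the methionine cycle held the lowest values of the 50 in NMYC cells, MAT2A and AHCY, and the highest in parental cells, DHPS, DOHH and SAT1, and none passed the test. Their median log2 value at T12 was -1.16 in NMYC cells, 0.26 in parental cells and -2.85 in the difference, with 8, 5 and 7 of the 10 below 0. The sign of the parental median depended on the library, with 0.78 in T12 replicate 1 and -0.68 in T12 replicate 2. Directly at T12, without T0, the median was -0.74 and 9 of the 10 were below 0, as 9098 of the 18197 genes tested were by construction. Among the 9 were ODC1 at -0.03, SMS at -0.34 and AMD1 at -0.36. In this group only DHPS and AHCY had both NMYC T12 libraries below both parental ones, as had 19% of all genes. MAT2A makes S-adenosylmethionine from methionine. It summed to 99.3 CPM at T0, 22.2 and 27.3 CPM at T6 and 2.35 and 1.51 CPM at T12 in NMYC cells. For MAT2A, parental cells had 5.08 CPM at T0, 7.599 and 1.15 CPM at T6 and 27.8 and 1.24 CPM at T12. Both NMYC T12 libraries were far below their T0 library, while the parental libraries were low from T0 on and overlapped with NMYC cells at T12 (1.24 CPM in the lower of them). The log2 value was -5.39 in NMYC cells with 3 of 3 sgRNAs lower (edgeR and rank aggregation adjusted p = 0.963), 1.53 in parental cells, -6.802 in the difference and -2.55 directly at T12. The main sgRNA had 1152 counts in the T0 library, 404 and 283 in those of T6 and 2 and 13 in those of T12 in NMYC cells. Another had 116, 28 and 60 and 34 and 8, and the third had 11 at T0 and 0 in every later NMYC library. The parental value rests on 1 library, where that sgRNA had 406 counts at T12.

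AHCY removes S-adenosylhomocysteine, the product of methylation reactions. It summed to 179 CPM at T0, 21.3 and 27.3 CPM at T6 and 5.298 and 12.5 CPM at T12 in NMYC cells. For AHCY, parental cells had 33.8 CPM at T0, 59.9 and 229 CPM at T6 and 27.2 and 28.8 CPM at T12. At T12 both NMYC libraries lay below both parental ones, and the log2 values were -4.28 in NMYC cells, -0.17 in parental cells, -4.000 in the difference and -1.53 directly at T12, none with an unadjusted p under 0.05. A single sgRNA carried 2231 of the 2304 counts in the NMYC T0 library and had 2 and 0 counts at T6, while another had 73 at T0 and 338 and 320 at T6. At T6 in NMYC cells the value was -2.62 (edgeR and rank aggregation adjusted p = 0.945), with 1 of 3 sgRNAs lower. DHPS and DOHH build hypusine, an amino acid made from spermidine on the translation factor eIF5A. DHPS summed to 47.03 CPM at T0, 29.1 and 21.9 CPM at T6 and 21.3 and 6.71 CPM at T12 in NMYC cells. For DHPS, parental cells had 1.57 CPM at T0, 21.7 and 31.4 CPM at T6 and 96.9 and 73.05 CPM at T12. DOHH summed to 24.99 CPM at T0, 11.6 and 40.3 CPM at T6 and 21.8 and 3.75 CPM at T12 in NMYC cells. For DOHH, parental cells had 0.672 CPM at T0, 37.1 and 47.5 CPM at T6 and 20.1 and 29.3 CPM at T12. For DHPS both NMYC T12 libraries lay below both parental ones, 14.01 ± 10.3 CPM against 84.9 ± 16.8 CPM (SD, n = 2 each), and for DOHH the arms overlapped.

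DHPS had log2 values of -1.74 in NMYC cells, 5.47 in parental cells (edgeR and rank aggregation adjusted p = 0.983) and -7.097 in the difference (adjusted p = 0.988). DOHH had -0.97 in NMYC cells, 4.52 in parental cells (adjusted p = 0.983) and -5.39 in the difference (adjusted p = 0.988). For both genes 3 of 3 sgRNAs were lower in NMYC cells and 3 of 3 higher in parental cells, relative to the median sgRNA. The sgRNAs of DHPS had 185, 328 and 93 counts in the NMYC T0 library, against 9, 10 and 2 in the parental one. Those of DOHH had 115, 8 and 199 counts, against 1, 3 and 5. Directly at T12, without T0, the log2 value was -2.49 for DHPS and -0.86 for DOHH, and neither reached an unadjusted p under 0.05. EIF5A, a gene of the protein that carries hypusine, was looked up after these values were seen. It summed to 18.7 CPM at T0, 14.6 and 15.5 CPM at T6 and 21.3 and 4.47 CPM at T12 in NMYC cells. For EIF5A, parental cells had 2.16 CPM at T0, 20.6 and 6.16 CPM at T6 and 58.3 and 56.2 CPM at T12. Its log2 values were -0.55 in NMYC cells, 4.53 in parental cells (edgeR and rank aggregation adjusted p = 0.983) and -4.97 in the difference (adjusted p = 0.992), and its parental T0 library too was the lowest of the 10. Its relative EIF5A2, in the same list of further genes, lay below the median gene in parental cells, where EIF5A lay above it. The log2 values of EIF5A2 were -1.45 in NMYC cells, -0.53 in parental cells and -0.81 in the difference. The plot of counts of single sgRNAs gives DHPS and DOHH library by library.

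**Figure D4:**
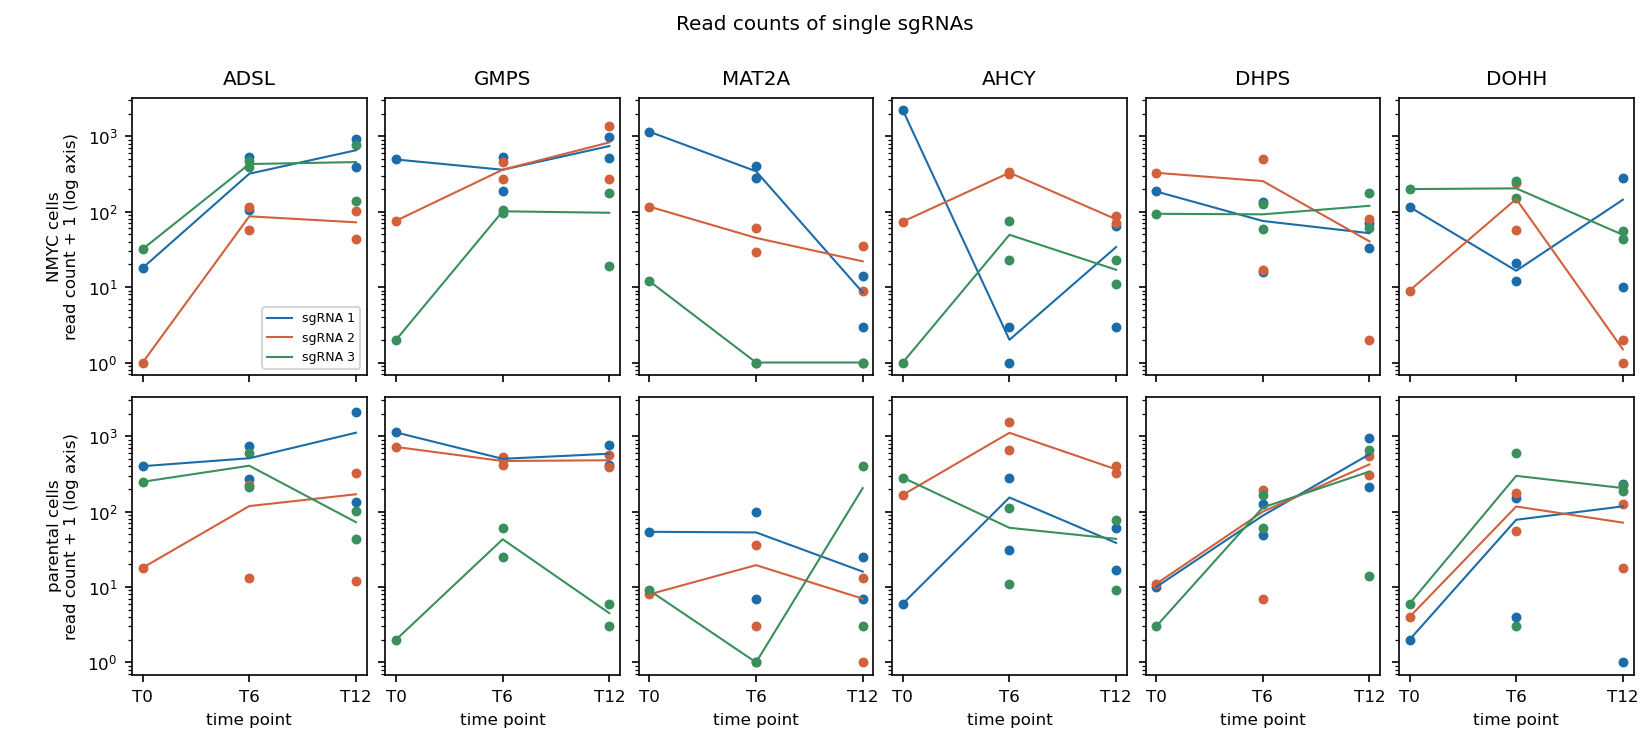
Read count + 1 (log axis) of each of the 3 sgRNAs of ADSL, GMPS, MAT2A, AHCY, DHPS and DOHH at T0, T6 and T12 in NMYC cells (top) and parental cells (bottom); points are libraries (1 at T0, 2 at T6 and T12) and lines join the means. The sgRNAs of DHPS and DOHH begin at 10 counts or fewer in the parental T0 library, and those of ADSL at 31 or fewer in the NMYC T0 library.

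Of the polyamine enzymes, AMD1, which decarboxylates S-adenosylmethionine, and SAT1, which acetylates spermidine and spermine for export, lay at opposite ends in parental cells and in the difference. AMD1 summed to 9.08 CPM at T0, 27.8 and 38.02 CPM at T6 and 27.5 and 11.1 CPM at T12 in NMYC cells. For AMD1, parental cells had 131 CPM at T0, 21.3 and 150.1 CPM at T6 and 33.5 and 18.9 CPM at T12. The parental T0 library stood high, with 1589 of its 1758 counts from an sgRNA that had 11 and 9 at T12, and the arms overlapped at T12. The log2 values of AMD1 were 1.02 in NMYC cells, -2.21 in parental cells (edgeR and rank aggregation adjusted p = 0.977), 3.33 in the difference (adjusted p = 0.978) and -0.36 directly at T12. SAT1 summed to 90.8 CPM at T0, 16.9 and 31.3 CPM at T6 and 15.6 and 92.7 CPM at T12 in NMYC cells. For SAT1, parental cells had 4.93 CPM at T0, 23.3 and 32.7 CPM at T6 and 95.8 and 81.1 CPM at T12. The parental T0 library was its lowest and the arms overlapped at T12, with log2 values of -0.77 in NMYC cells, 4.13 in parental cells (edgeR and rank aggregation adjusted p = 0.983), -4.79 in the difference (adjusted p = 0.992) and -0.63 directly at T12.

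MTAP, which recovers methionine from the by-product of polyamine synthesis, was above the median gene in all 8 later libraries and had the highest log2 value of the group in NMYC cells, 1.85, against 0.69 in parental cells. It summed to 52.00 CPM at T0, 66.3 and 63.4 CPM at T6 and 134 and 251 CPM at T12 in NMYC cells. For MTAP, parental cells had 43.8 CPM at T0, 98.4 and 75.3 CPM at T6 and 78.6 and 53.9 CPM at T12. At T12 both NMYC libraries lay above both parental ones, 193 ± 82.6 CPM against 66.2 ± 17.5 CPM (SD, n = 2 each), and T0 differed little between the arms. The difference was 1.27 and the direct value at T12 1.61, neither with an unadjusted p under 0.05. ODC1, which makes putrescine from ornithine, was below the median gene in all 8 later libraries, with -1.35 in NMYC cells, -0.97 in parental cells and -0.27 in the difference. Its downstream synthases had, in the same order, -2.13, -0.33 and -1.69 for SRM, which makes spermidine, and -0.82, -1.27 and 0.56 for SMS, which makes spermine.

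In glutamine, aspartate and asparagine metabolism, GLUD1 lay above the median gene in all 8 later libraries, the other 5 genes differed in sign between libraries, and none passed the test. The 6 genes had a median log2 value at T12 of -0.199 in NMYC cells, 0.91 in parental cells and -0.37 in the difference, with 4, 2 and 3 of them below 0. Directly at T12, without T0, the median had the opposite sign to the difference, 0.57, with 1 of the 6 below 0, and the NMYC median against T0 was 0.43 in one T12 duplicate and -0.08 in the other. GLUD1, glutamate dehydrogenase, summed to 25.8 CPM at T0, 57.1 and 88.5 CPM at T6 and 38.00 and 123 CPM at T12 in NMYC cells. For GLUD1, parental cells had 25.8 CPM at T0, 62.4 and 30.5 CPM at T6 and 60.7 and 60.9 CPM at T12. Its log2 values were 1.597 in NMYC cells, the highest of the group, 1.31 in parental cells and 0.39 in the difference, and the arms overlapped at T12. Its sgRNAs may also cut the near-identical copy GLUD2, which cannot be told from the counts. GLS2, a glutaminase known from liver, summed to 118 CPM at T0, 53.1 and 16.7 CPM at T6 and 107 and 41.5 CPM at T12 in NMYC cells. For GLS2, parental cells had 8.36 CPM at T0, 35.3 and 84.6 CPM at T6 and 29.7 and 62.4 CPM at T12. The parental T0 library was the lowest of the 10, and the difference of -3.07 was the lowest of the group, with -0.69 in NMYC cells, 2.49 in parental cells and 0.75 directly at T12. GLUL, glutamine synthetase, summed to 7.06 CPM at T0, 20.05 and 45.6 CPM at T6 and 20.99 and 21.2 CPM at T12 in NMYC cells. For GLUL, parental cells had 24.1 CPM at T0, 44.3 and 10.8 CPM at T6 and 16.7 and 24.04 CPM at T12. It had the highest difference of the group, 1.73, and 0.12 directly at T12, where the duplicates of the arms overlapped.

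The aspartate aminotransferases lay apart in parental cells. GOT1, in the cytosol, summed to 125 CPM at T0, 73.5 and 51.3 CPM at T6 and 80.6 and 73.7 CPM at T12 in NMYC cells. For GOT1, parental cells had 38.2 CPM at T0, 64.7 and 28.5 CPM at T6 and 83.4 and 18.8 CPM at T12. GOT2, in mitochondria, summed to 6.21 CPM at T0, 9.77 and 1.99 CPM at T6 and 2.68 and 9.66 CPM at T12 in NMYC cells, over 2 sgRNAs. For GOT2, parental cells had 2.69 CPM at T0, 12.9 and 2.44 CPM at T6 and 44.5 and 4.84 CPM at T12. Both overlapped between the arms at T12, and the log2 values were -0.72 for GOT1, the lowest of the group, and -0.04 for GOT2 in NMYC cells, against 0.51 and 3.08, the highest, in parental cells. ASNS, asparagine synthetase, summed to 15.1 CPM at T0, 18.9 and 38.2 CPM at T6 and 21.4 and 2.45 CPM at T12 in NMYC cells, over 2 sgRNAs. For ASNS, parental cells had 5.599 CPM at T0, 5.77 and 13.05 CPM at T6 and 1.36 and 3.54 CPM at T12. It had the lowest log2 value of the group in parental cells, -0.95, with -0.36 in NMYC cells, at levels where 1 NMYC library decided the direct T12 value of 2.15.

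At T6, as at T12, no gene of the set passed the test. In NMYC cells 2 of the 50 genes were lower at an unadjusted p under 0.05 (5.12% of all genes) and 2 higher (4.96%), and none at an adjusted p of 0.05 (0% of all genes). The lower ones were AHCY and SRM (-1.600, edgeR and rank aggregation adjusted p = 0.959), and the higher ones ADSL (3.83, adjusted p = 0.52) and ASNS (1.13, adjusted p = 0.96). In parental cells at T6, 1 gene was lower (5.01%) and 6 were higher (4.88%), again with 0 adjusted (0% of all genes). The lower one was APRT (-3.65, adjusted p = 0.974). The 6 higher ones were TYMS, TK1, PSAT1, DHPS, DOHH and AHCY, with log2 values between 2.28 and 5.39 and adjusted p-values of 0.998, and all but AHCY were below 10 CPM in the parental T0 library. Of the genes called lower at T6 in NMYC cells, AHCY and SRM each had only 1 of 3 sgRNAs below the median sgRNA. The members' median log2 value at T6 was -0.12 in NMYC cells and 0.401 in parental cells.

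Without T0, the arms were set directly against each other at T12. At an adjusted p of 0.05 none of the 50 genes was called (0% of all genes), and at an unadjusted p under 0.05 3 were lower in NMYC cells (5.11% of all genes) and 1 higher (4.89%). The lower ones were DTYMK, given above, HPRT1 (-1.07, edgeR and rank aggregation adjusted p = 0.972) and SMS (-0.34, adjusted p = 0.972). HPRT1 and SMS each had only 1 of 3 sgRNAs below the median sgRNA, and DTYMK had 2 of 3. The higher one was RRM2 (edgeR and rank aggregation adjusted p = 0.976), with 2 of 3 sgRNAs below the median sgRNA. Its rank thus rests on 1 sgRNA, and its summed level had a log2 value of -0.36, of the opposite sign. Both NMYC libraries lay below both parental ones for 6 of the 50 genes (UMPS, DTYMK, DCK, PHGDH, DHPS and AHCY), as for 19% of all genes, and above both for 5 (PPAT, GMPS, CAD, CTPS2 and MTAP), as for 14.8%. Of the 12 genes more than 4-fold higher in the NMYC than in the parental T0 library, 12 had a T12 against T0 difference below 0, and 7 were below 0 directly at T12. Over all genes, 2677 of 2731 such genes had a difference below 0, and 1362 were below 0 directly at T12. Of the 7 genes more than 4-fold lower in the NMYC T0 library, 6 had a difference above 0 and 2 were above 0 directly at T12, against 2599 and 1338 of 2669 over all genes.

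The sgRNAs of a gene often disagreed. Among the 41 genes with 3 kept sgRNAs, the median range of sgRNA log2 fold changes within a gene was 3.74 in NMYC cells, 5.40 in parental cells and 7.64 in the difference, against 4.23, 5.37 and 6.75 over all genes with 3. All 3 sgRNAs were lower than the median sgRNA in NMYC cells for 12 of the 41 genes (12.8% of all genes with 3 kept sgRNAs). These were PFAS, IMPDH1, ADSS, HPRT1, CAD, DTYMK, MTHFD1, SHMT2, PHGDH, DHPS, DOHH and MAT2A. All 3 were higher for 6 (12.7%), ADSL, ATIC, GMPS, DUT, MTAP and GLUD1. In parental cells all 3 were lower for 4 genes (12.7%), GART, IMPDH1, PSPH and SMS, and higher for 8 (12.2%), SHMT1, SHMT2, PHGDH, PSAT1, SAT1, DHPS, DOHH and GLS2. In the difference all 3 were lower for 10 genes (12.5%) and higher for 5 (12.7%). The 12 lower genes in NMYC cells, the 8 higher in parental cells and the 10 lower in the difference stood above these shares. The departure was not tested. Tested singly with edgeR, 0 of the 141 sgRNAs passed an adjusted p of 0.05 in NMYC cells, parental cells or the difference, where 0.0132%, 0.0226% and 0% of all sgRNAs were called lower and 0% higher. With an unadjusted p below 0.05, 11 of the 141 were lower in NMYC cells (5.31% of all sgRNAs) and 2 higher (1.48%), 8 and 7 in parental cells (5.92% and 5.31%), and 8 and 5 in the difference (6.17% and 3.78%). DESeq2 called 4, 14 and 8 of the 141 at an adjusted p of 0.05 in NMYC cells, parental cells and the difference, and 2.76%, 10.8% and 6.33% of all sgRNAs, with 1 and 6 at T6 in NMYC and parental cells (0.168% and 6.37%) and 12 directly at T12 (8.38%). Read against 141 sgRNAs, these calls were near the shares over all sgRNAs.

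Of 85 further genes of the same pathways, 84 were in the table and 82 were tested. None passed an adjusted p of 0.05 in NMYC cells, parental cells or the difference (0% of all genes), and at an unadjusted p under 0.05 8 were lower and 5 higher in NMYC cells (5.02% and 5.07% of all genes). In parental cells 2 were lower and 3 higher (5.11% and 4.85%), and in the difference 4 and 4 (4.78% and 4.85%). CDA, which deaminates cytidine, had the smallest p among the higher ones in NMYC cells, with a log2 value of 4.31 (edgeR and rank aggregation adjusted p = 0.885). It summed to 2.87 CPM at T0, 6.89 and 47.9 CPM at T6 and 27.4 and 108 CPM at T12 in NMYC cells, over 2 sgRNAs. For CDA, parental cells had 64.9 CPM at T0, 23.9 and 33.7 CPM at T6 and 46.8 and 26.6 CPM at T12. GGH, which removes glutamates from folates, had the smallest p among the lower ones there, with -2.95 (adjusted p = 0.853). GGH summed to 373 CPM at T0, 33.6 and 22.6 CPM at T6 and 87.3 and 10.2 CPM at T12 in NMYC cells. For GGH, parental cells had 93.3 CPM at T0, 60.7 and 81.6 CPM at T6 and 49.2 and 12.8 CPM at T12. In parental cells MRI1, an enzyme of methionine salvage, was the lower one with -4.01 (adjusted p = 0.95), and had a difference of 7.04 (adjusted p = 0.972). It summed to 4.35 CPM at T0, 11.9 and 53.6 CPM at T6 and 26.4 and 47.6 CPM at T12 in NMYC cells. For MRI1, parental cells had 93.5 CPM at T0, 24.1 and 101 CPM at T6 and 9.05 and 0.870 CPM at T12. ASL, argininosuccinate lyase, was the higher one with 0.76 (adjusted p = 0.983), and had a difference of -4.29 (adjusted p = 0.988). It summed to 265 CPM at T0, 42.3 and 46.6 CPM at T6 and 28.3 and 14.4 CPM at T12 in NMYC cells. For ASL, parental cells had 36.9 CPM at T0, 35.9 and 10.9 CPM at T6 and 61.4 and 56.4 CPM at T12. For MRI1 and CDA, as for ADSL, the NMYC T0 library was the lowest of that arm, and for GGH and ASL it was the highest of the 10.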

How the data were processed

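Raw read counts for each sgRNA were deposited by the authors as whole numbers, unscaled, in a table whose 10 columns carry the names of the 10 libraries, and 0 columns were left unmapped. MAGeCK is named in the submitters' processing notes without a version, and the sources used here do not give the trimming, the mismatch setting, the sgRNA reference or the genome build. The 50 genes, their 5 groups and the 85 further pathway genes were chosen with earlier results of these data known. Genes are named as in the table, where ADSS is the older symbol of ADSS2. The sequences of the sgRNAs were not used here.

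Counts were analysed in R 4.3.3 with edgeR 4.0.16. sgRNAs averaging 20 counts or more across libraries were kept (53040 of 55849), and genes with at least 2 kept sgRNAs were tested (18197). Libraries were scaled by TMM factors, and a quasi-likelihood model with a mean for each of the 6 groups and 4 residual degrees of freedom was fitted to all libraries, since the lone T0 library of an arm has no spread of its own and borrows that of the duplicates. The common dispersion was 1.11. Gene p-values in each direction came from robust rank aggregation of the signed sgRNA p-values (alpha at a one-sided p of 0.25, exact null for each number of sgRNAs), the kind of score MAGeCK uses, with Benjamini-Hochberg adjustment over all genes at 0.05. The contrasts were T12 against T0 and T6 against T0 in each arm, the NMYC minus parental difference of T12 against T0, and NMYC against parental at T12, 6 in all. The procedure was also run on simulated data, whose outcome is not given here, so how large a change it could detect is not stated. A gene that did not pass is therefore not shown to be unchanged. Replicate values are given as mean ± SD with n = 2.

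Values in every library are given for members with an unadjusted gene p under 0.05 in a T12 against T0 contrast and for the lowest and highest member of each group there. Other members have a log2 value, a range or a count, and of the further genes the one with the smallest p in each direction is named. AHCY, named for T6, and EIF5A were given in full after their values were seen. EIF5A2 was set beside EIF5A with its log2 values, also after they were seen. Alternatives were median-of-ratios factors, factors from non-targeting sgRNAs, no sgRNA filter, at least 30 counts in both T0 libraries, a median over sgRNAs, DESeq2 1.42.0, edgeR on counts summed per gene, each arm fitted alone, a replicate block and leaving out each replicate. The replicate numbers were compared over T6 and T12 by the correlation of the duplicates' differences.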

Additional observations from a re-analysis of the deposited data

How the results depend on the processing

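No member passed an adjusted p of 0.05 under any alternative run for it, and the lowest adjusted p of a member was 0.186, for DHPS in parental cells with edgeR on counts summed per gene. Over all genes, that alternative called 2 genes in NMYC cells and 1 in parental cells at T12, the NMYC libraries alone gave 1, and a minimum of 30 counts in both T0 libraries gave 1 at T6 in NMYC cells. Leaving out 1 library gave 0 to 1 genes in NMYC cells (1 without parental T12 replicate 2), in parental cells (1 without parental T12 replicate 1) and directly at T12 (1 without NMYC T12 replicate 2).

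Of the members' sgRNAs, DESeq2 called 4 in NMYC cells, 14 in parental cells and 8 in the difference at T12, 1 and 6 at T6, and 12 directly at T12. The NMYC libraries alone gave 2 at T12 and 1 at T6, and leaving out 1 library gave 0 to 1 at T6 in NMYC cells (1 without either parental T12 replicate).

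The members' median at T12 was -0.69 in NMYC cells and -0.50 in parental cells with 30 counts at T0, where 23 members were tested. In NMYC cells it was 0.0558 as a median over sgRNAs and 0.0670 with both T0 libraries as baseline, which was chosen after seeing the data and gave 0.26 in parental cells at T6. Leaving out 1 library gave -0.12 to 0.13 in parental cells at T12 (0.13 without replicate 2) and 0.16 to 0.40 at T6 (0.16 without replicate 2). The cause of these shifts was not tested. The 15 group medians at T12, recomputed under the alternatives, gave 205 values. Of these, 172 moved by less than the spread between replicates and 33 by as much or more.

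The duplicates' differences at T6 and T12 correlated at -0.00874 in NMYC cells and 0.0687 in parental cells. Across the arms such correlations lay between -0.00484 and 0.00812. With duplicates this far apart, these values cannot tell whether the replicate numbers pair the libraries. With a replicate block 0 genes and 0 members passed in each of the 6 contrasts. Each value against T0 rests on 1 T0 library without a duplicate. The T12 duplicates differed by more than 2 in log2 for 22.4% of all genes in NMYC cells and 24.5% in parental cells. Which libraries limit the precision most was not tested.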
